A study of Homo sapiens with 12 samples.

Results

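Described here are the isocitrate dehydrogenase genes and their partners in the citric acid cycle in the cell line MDA-MB-231, which is established from human breast cancer, is of the triple-negative kind and has mesenchymal features. IDH1 was chosen by its own measured values, as one of the genes that stood lowest with digoxin against DMSO, and IDH2, IDH3A, IDH3B, IDH3G, CS, OGDH, FH and MDH2 were added as its relatives and neighbours in the pathway, 9 genes in all. FH had no probe set with its symbol alone and was not analysed here. The other 8 genes, of 11963 genes measured, were read by 14 probe sets, and each gene is given by its brightest probe set unless another is named. Cells grown in DMEM with serum were exposed for 24 h to digoxin, a glycoside inhibitor of the sodium pump, to manassantin, a plant lignan, to rotenone, an inhibitor of respiratory complex I, or to the vehicle DMSO alone. Each of these 4 groups had 3 Affymetrix GeneChip arrays, and no group carried a genetic change. The sample titles say digoxin where the description of the design says digitoxin, a close relative, and that description names manassantin A. The sources used here give neither doses nor the oxygen level. No label ties the arrays of one group to separate cultures; the p-values therefore reflect the spread among these arrays alone, and that spread may be technical.

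Isocitrate dehydrogenases convert isocitrate to 2-oxoglutarate. IDH1 works in the cytosol and peroxisomes and IDH2 in mitochondria, both as homodimers that make NADPH, whereas the IDH3 complex of IDH3A, IDH3B and IDH3G makes NADH within the cycle. IDH3A carries the catalytic activity of that complex, and IDH3B and IDH3G are its structural and regulatory subunits. CS (citrate synthase) opens the cycle, OGDH is the decarboxylating subunit of the 2-oxoglutarate dehydrogenase complex, and MDH2 closes the cycle by making oxaloacetate from malate. Cytosolic citrate and isocitrate feed fatty acid synthesis and NADPH supply, which is where IDH1 acts.

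The sequences upstream of IDH1 and IDH3A are shown because these genes stood at opposite ends of the members' values with digoxin. Each run is the 250 bases before the annotated start in RefSeq, read 5′ to 3′ on the gene's own strand in the build GRCh38.p14, chr2:208255072-208255321 (minus strand) for IDH1 and chr15:78149112-78149361 (plus strand) for IDH3A. Capitals mark GC boxes (GGGCGG) and CCAAT boxes (CCAAT), searched on both strands.
IDH1: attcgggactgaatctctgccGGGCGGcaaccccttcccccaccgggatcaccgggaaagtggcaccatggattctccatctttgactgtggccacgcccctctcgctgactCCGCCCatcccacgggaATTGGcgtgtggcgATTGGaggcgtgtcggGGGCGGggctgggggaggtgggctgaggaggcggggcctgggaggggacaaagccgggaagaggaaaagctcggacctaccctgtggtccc
IDH3A: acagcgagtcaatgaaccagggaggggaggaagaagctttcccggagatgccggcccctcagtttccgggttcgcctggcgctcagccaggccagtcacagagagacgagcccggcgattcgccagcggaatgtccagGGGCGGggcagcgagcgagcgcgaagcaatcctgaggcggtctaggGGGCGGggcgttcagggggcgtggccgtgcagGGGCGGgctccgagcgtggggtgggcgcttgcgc
The IDH1 window held 3 GC boxes and 2 CCAAT boxes in 66.4% GC, and the IDH3A window held 3 GC boxes and 0 CCAAT boxes in 70.0% GC. GC boxes were found in 42.6% and CCAAT boxes in 32.0% of 35116 windows of the same length, whose median GC content was 58.0%. The promoter table held 7 of the 8 genes, all but OGDH. The IDH2 entry began 1847 bases inside the gene. A second IDH1 entry began 613 bases inside its gene, with 1 GC box and 0 CCAAT boxes in 56.8% GC. Windows at the annotated gene start were held for 6 genes. Of those 6 windows, 3 held a GC box (CS, IDH1 and IDH3A), 3 a CCAAT box (CS, IDH1 and IDH3G), 3 the ETS site CCGGAAG (IDH3B, IDH3G and MDH2; 8.52% of all windows) and 2 the NRF1 core TGCGCA (IDH3B and IDH3G; 6.89%). The E-box CACGTG (6.34% of all windows) and the AP-1 site TGANTCA (6.57%) were in 0 of the 6, no base lay in matches of more than 1 motif, and these letters describe the windows only. The IDH1 gene spans positions 208236227 to 208255071 of chromosome 2, on the minus strand, and IDH3A positions 78149362 to 78171945 of chromosome 15, on the plus strand.

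All levels are log2 intensities as deposited. Levels of different probe sets were compared only to choose a gene's brightest and to call genes bright or dim. IDH1 was set against other genes by changes from the DMSO mean. Array medians over all probe sets lay between 5.881 and 5.995. All 6 genes typical of this line (VIM, CD44, AXL, MSN, CAV1 and KRT18) were bright, with group means of 11.27 to 13.24. Of 5 genes held to be low in it, PGR and CDH1 were dim, meaning under the 40th percentile of all genes (5.75), while ESR1, ERBB2 and EPCAM were above that level. Of 11 markers of leukocytes, endothelium, adipocytes and hepatocytes, 10 were measured and all 10 were dim in every group (group means 2.30 to 5.16). The 18S control averaged 10.08 with digoxin, 9.83 with manassantin, 10.01 with rotenone and 10.40 with DMSO (SD 0.16, 0.48, 0.15 and 0.32 in that order, n = 3 each), and its part in the differences between groups was examined only as a covariate in the fit. In whole cultures, fewer cells of a kind and less RNA per cell cannot be told apart.

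IDH1 was read by 1 probe set. Its level was 6.04, 5.46 and 5.47 on the digoxin arrays, 9.34, 9.22 and 9.27 on the manassantin arrays, 8.83, 8.84 and 8.88 on the rotenone arrays, and 9.16, 9.10 and 9.05 on the DMSO arrays. The digoxin arrays lay far below all others, and the first of them lay above the other two of its group. Digoxin minus DMSO was -3.44 ± 0.12 (SE), which puts the IDH1 intensity with digoxin at 9.19% of that with DMSO. The digoxin mean of 5.66 lay under the dim level of 5.75, so that percentage describes intensities and may understate the size of the difference in RNA. The IDH1 difference was the lowest of all 11963 differences between digoxin and DMSO, followed by KRCC1 at -3.38 and SH3TC2 at -3.01, which were also dim with digoxin (means 5.52 and 3.46), so the order of these falls is not firm. These values chose the gene and carry no test. Digoxin also stood below manassantin by -3.62 and below rotenone by -3.19. Levels decreased in the order manassantin (9.28 ± 0.058), DMSO (9.10 ± 0.055), rotenone (8.85 ± 0.027) and digoxin (5.66 ± 0.33, SD, n = 3 each), and no neighbours in this order had overlapping arrays. Of all genes, 22.4% did not overlap between manassantin and DMSO, and 31.2% between rotenone and DMSO. For IDH1 neither of these steps passed the test (limma adjusted p = 0.529 and 0.263).

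**Figure D1:**
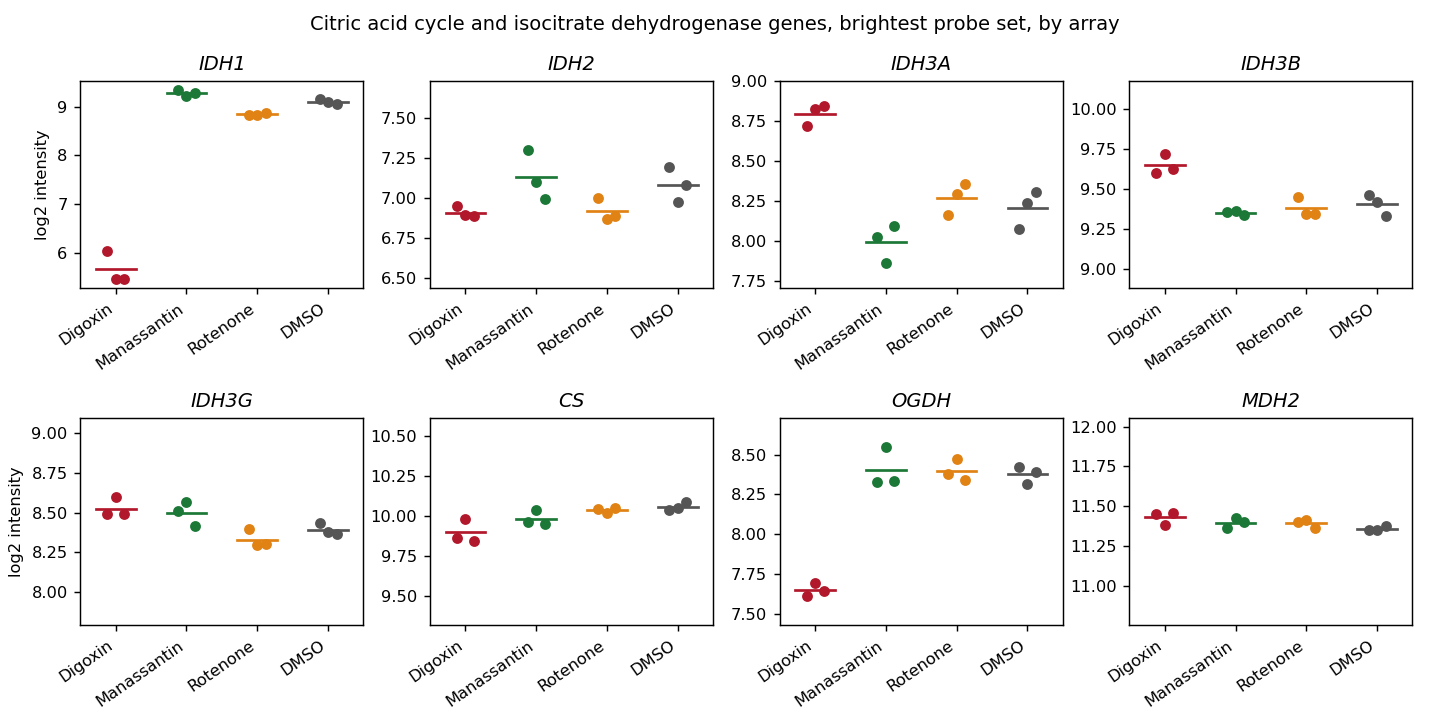
Log2 intensity (y axis) of the brightest probe set of each gene on every array (points) with the group mean (line), for digoxin, manassantin, rotenone and DMSO from left to right. Each panel has its own range, at least 1 log2 unit high; IDH1 with digoxin lies at 5.46 to 6.04, against 9.05 to 9.16 with DMSO, and the other genes span far less.

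The mitochondrial NADPH-forming enzyme stood apart much less with digoxin. IDH2 was at 6.95, 6.89 and 6.89 with digoxin, 7.30, 7.10 and 6.998 with manassantin, 6.999, 6.87 and 6.89 with rotenone, and 7.19, 6.98 and 7.08 with DMSO. Digoxin minus DMSO was -0.17 ± 0.079 (SE) for IDH2, and its digoxin arrays overlapped those of rotenone. The second IDH2 probe set was dim and differed by -0.41. Set within each array against the gene's own DMSO mean, IDH1 moved by -3.27 ± 0.30 relative to IDH2 with digoxin (SD, n = 3), by 0.12 ± 0.12 with manassantin and by -0.09 ± 0.09 with rotenone.

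The catalytic subunit of the NADH-forming enzyme stood higher with digoxin. IDH3A was at 8.72, 8.83 and 8.84 with digoxin, 8.02, 7.86 and 8.09 with manassantin, 8.16, 8.30 and 8.36 with rotenone, and 8.07, 8.24 and 8.31 with DMSO. All digoxin arrays lay above all others, and digoxin minus DMSO was 0.59 ± 0.079 (SE), or 1.51-fold. The second IDH3A probe set went the other way, at 6.86, 6.67 and 6.99 with digoxin against 6.997, 7.04 and 7.02 with DMSO, a difference of -0.18. The direction for IDH3A with digoxin therefore depended on the probe set. Relative to IDH3A's brightest probe set, IDH1 moved by -4.04 ± 0.40 within the digoxin arrays (SD, n = 3).

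The other subunits of that enzyme differed less between digoxin and DMSO. IDH3B was at 9.60, 9.72 and 9.63 with digoxin, 9.35, 9.36 and 9.34 with manassantin, 9.45, 9.35 and 9.35 with rotenone, and 9.47, 9.42 and 9.33 with DMSO. Its 3 probe sets gave digoxin minus DMSO values of 0.24, 0.34 and 0.19. IDH3G was at 8.49, 8.60 and 8.49 with digoxin, 8.51, 8.56 and 8.41 with manassantin, 8.40, 8.29 and 8.30 with rotenone, and 8.43, 8.38 and 8.36 with DMSO. Digoxin minus DMSO was 0.13 ± 0.055 (SE) for IDH3G and 0.29 for its second probe set, while its digoxin and manassantin arrays overlapped. The brightest IDH3B probe set and the second of IDH3G carry the suffix x_at, which Affymetrix gives to sets with probes that may also bind other transcripts.

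Of the remaining cycle enzymes, OGDH stood lower with digoxin. Its level was 7.61, 7.70 and 7.64 with digoxin, 8.33, 8.55 and 8.34 with manassantin, 8.37, 8.47 and 8.34 with rotenone, and 8.42, 8.32 and 8.39 with DMSO. All digoxin arrays lay below all others, and digoxin minus DMSO was -0.73 ± 0.066 (SE), or 60.4% of the DMSO level. CS was at 9.86, 9.98 and 9.85 with digoxin, 9.96, 10.04 and 9.95 with manassantin, 10.04, 10.02 and 10.05 with rotenone, and 10.04, 10.05 and 10.09 with DMSO. Its digoxin minus DMSO value of -0.16 ± 0.049 (SE) became 0.03 when arrays were centred on their median over genes, so no direction is given for CS, nor for IDH2, which became 0.01.

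The 2 probe sets of MDH2 disagreed. The brightest one was at 11.45, 11.38 and 11.46 with digoxin, 11.36, 11.42 and 11.40 with manassantin, 11.40, 11.42 and 11.37 with rotenone, and 11.35, 11.35 and 11.38 with DMSO, a digoxin minus DMSO value of 0.07 ± 0.043 (SE). The second was at 6.36, 6.18 and 6.30 with digoxin, 7.17, 7.19 and 7.19 with manassantin, 7.17, 7.21 and 7.12 with rotenone, and 7.21, 7.12 and 7.26 with DMSO. Its digoxin arrays lay below all others, by -0.92 against DMSO, so that MDH2 could not be given a direction with digoxin.

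**Figure D2:**
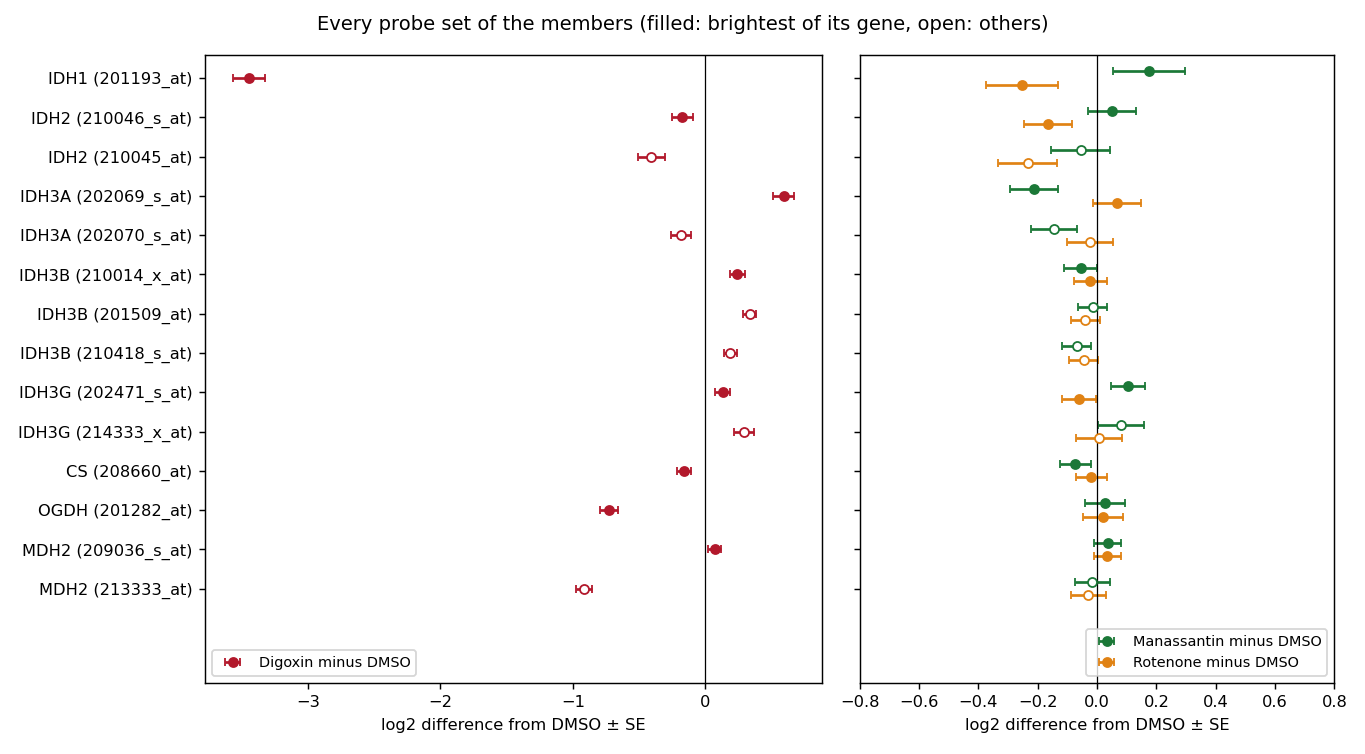
Log2 difference from DMSO with its SE (x axis) for each of the 14 probe sets (y axis), digoxin on the left and manassantin and rotenone on the right with a narrower axis. Filled points are the brightest probe set of a gene and open points its others; the probe sets of IDH3A (0.59 and -0.18) and of MDH2 (0.07 and -0.92) lie on opposite sides of 0 with digoxin.

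Against DMSO, digoxin changed 54.8% of all genes at an adjusted p under 0.05 (limma with Benjamini-Hochberg adjustment), 28% higher and 26.9% lower, and 61.9% of all genes had digoxin arrays that did not overlap the DMSO arrays. By the same counts 5 of the 8 members passed, 2 higher and 3 lower, and 8 of 8 did not overlap. Since this contrast chose the genes, nothing is read from those counts. The median difference over the 8 members was -0.04, and over all genes 0.07. That median over all genes depended on the scaling: it was 0.15 with arrays centred on their median over probe sets and 0.25 with centring over genes. On these recentred scales, before subtracting those medians, IDH1 stood at -3.36 and -3.26, IDH3A at 0.68 and 0.78, and OGDH at -0.64 and -0.54.

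The genes whose profile was most like that of IDH1 were found by the root-mean-square difference over the 12 arrays, each gene centred on its own DMSO mean. KRCC1 (0.19), SH3TC2 (0.30), PNMA8A (0.34), DDIT4 (0.36), an inhibitor of mTORC1 signalling, and NXPE3 (0.38) came closest, where the median gene stood at 1.77. Their digoxin minus DMSO values ran from -3.38 for KRCC1 to -2.77 for DDIT4. Over the 9 arrays without digoxin the closest were ARHGEF40 (0.036), LXN (0.051), DDX11 (0.052), BBS4 (0.057) and POLA2 (0.057), a subunit of the DNA polymerase alpha complex, with the median gene at 0.21. None of the first 5 was among these (0 shared). The distance over all 12 arrays is set mainly by the digoxin values that chose IDH1. The first 5 therefore had to be strong falls with digoxin, and nothing is read from the lack of shared genes.

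Manassantin and rotenone, compared with DMSO, gave small differences in the members, none of which passed the test. With manassantin, limma called 0 of 8 members, where 0.97% of all genes were called (0.853% higher and 0.117% lower). At an unadjusted p under 0.05 there was 1 of the 8 members, IDH3A, and 1896 of all 11963 genes. The members' differences from DMSO ran from -0.21 for IDH3A to 0.17 for IDH1, with a median of 0.03. IDH1 with manassantin was 0.17 above DMSO (95% interval -0.09 to 0.44, limma adjusted p = 0.529), and IDH3A was at -0.21 (interval -0.39 to -0.04, limma adjusted p = 0.21). The other 6 had limma adjusted p-values from 0.398 for IDH3G to 0.886 for OGDH. Only for IDH1 did the manassantin and DMSO arrays not overlap, 1 of 8 members where 22.4% of all genes did not.

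With rotenone, limma called 0 of 8 members, where 6.94% of all genes were called (3.55% higher and 3.39% lower). At an unadjusted p under 0.05 there were 0 of the 8 members, and 2545 of all 11963 genes. The members' differences from DMSO ran from -0.25 for IDH1 to 0.07 for IDH3A, with a median of -0.02. IDH1 with rotenone was at -0.25 (95% interval -0.52 to 0.01, limma adjusted p = 0.263), although all 3 rotenone arrays lay below all 3 DMSO arrays; an exact two-sided permutation test of IDH1 gave p = 0.1, the smallest that 3 against 3 arrays allow. The spread shared by all groups included the digoxin arrays, where IDH1 varied most (SD 0.33). Without the digoxin arrays, a fit chosen after seeing the data, the SE for IDH1 was 0.050 in place of 0.12 and the same -0.25 had a limma adjusted p of 0.0177. With only the rotenone and DMSO arrays it was 0.0257; these were the 2 of 18 alternatives in which IDH1 passed, the adjusted p ranging from 0.0177 to 0.528. IDH2 was at -0.17 (limma adjusted p = 0.254), and the other 6 members had adjusted p-values from 0.6 for IDH3G to 0.908 for OGDH. IDH1 was the 1 of 8 members whose rotenone and DMSO arrays did not overlap, where 31.2% of all genes did not.

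The means of manassantin and rotenone used none of the arrays by which IDH1 was chosen, although the spread in the fit came from all 12 arrays, those included. Here IDH1 was 0.43 above rotenone with manassantin, IDH2 0.22 and IDH3G 0.16 above, and IDH3A was at -0.28. Limma called 0 of 8 members, where 8.47% of all genes were called (4.69% higher and 3.78% lower). At an unadjusted p under 0.05 there were 4 of the 8 members, and 2805 of all 11963 genes. With the replicate number as a block limma called 3 members (IDH1, IDH2 and IDH3A), and 11.3% of all genes. For IDH1 the 95% interval was 0.16 to 0.69 and the limma adjusted p 0.0516, or 0.0372 with the replicate block and 0.00157 without the digoxin arrays. For IDH3A the interval was -0.45 to -0.11 and the limma adjusted p 0.0503, or 0.0229 with the block. The second IDH3A probe set was at -0.12 (limma adjusted p = 0.406 over all probe sets). For IDH2 the limma adjusted p was 0.117, or 0.0364 with the block, and for IDH3G 0.091, or 0.0671 with the block.

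The manassantin arrays lay above all rotenone arrays for IDH1 and IDH3G and below them for IDH3A, 3 of 8 members not overlapping where 29.2% of all genes did not. For IDH2 the lowest manassantin array and the highest rotenone array lay at 6.998 and 6.999, so the groups overlapped. The remaining enzymes gave small values in manassantin minus rotenone: IDH3B -0.03 (95% interval -0.15 to 0.09), CS -0.05 (interval -0.16 to 0.05), OGDH 0.01 (interval -0.14 to 0.15) and MDH2 0.00 (interval -0.09 to 0.10). Over the alternatives tried, IDH1 was called in 8 of 18 (adjusted p from 0.00157 to 0.143), IDH3A in 6 of 18 (0.00996 to 0.171), IDH3G in 2 (0.0365 to 0.245) and IDH2 in 1 (0.0364 to 0.354), each in one direction throughout. The median of the 8 differences was 0.00, as was that of all genes.

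**Figure D3:**
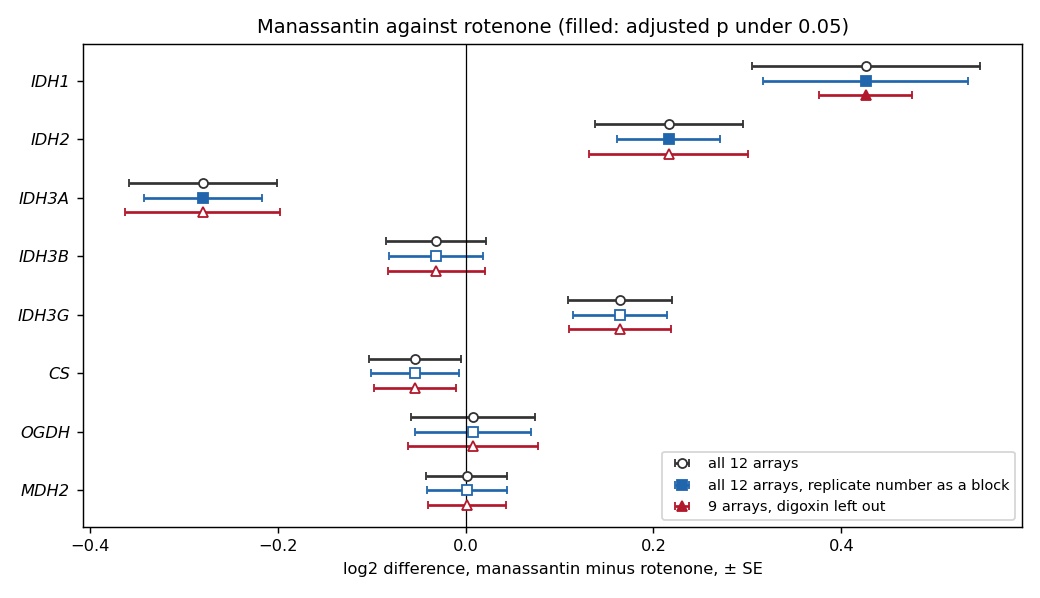
Manassantin minus rotenone on the log2 scale with its SE (x axis) for the 8 genes (y axis) in 3 fits: all 12 arrays (circles), the same with the replicate number as a block (squares) and the 9 arrays without digoxin (triangles). Filled symbols have an adjusted p under 0.05; IDH1 (0.43), IDH2 (0.22) and IDH3A (-0.28) are filled with the block, and IDH1 alone without digoxin.

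The other enzymes of the cycle were taken as a list of 10, of which 8 were measured (the others were not analysed here). With digoxin 3 rose and 2 fell, or 62.5% called where 54.8% of all genes were, with a median of 0.10. With centring over genes 5 rose and 1 fell. DLST, the transacylase core of the 2-oxoglutarate dehydrogenase complex, rose by 0.47 (levels 9.35 to 9.57 with digoxin, against 8.97 to 9.06 with DMSO, limma adjusted p = 0.000115), while DLD, its lipoamide-regenerating subunit, fell by 0.36 (9.65 to 9.70 against 9.96 to 10.11, limma adjusted p = 0.00178). With OGDH at -0.73, the subunits of that complex did not differ in one direction. The alternative beta subunits of succinyl-CoA ligase were also split. The ATP-forming SUCLA2 fell by 0.59 (8.44 to 8.60 against 9.07 to 9.21, limma adjusted p = 1.93e-05). The GTP-forming SUCLG2 rose by 0.32 (9.58 to 9.73 against 9.31 to 9.37, limma adjusted p = 0.00018). The other SUCLG2 probe sets gave 0.33, 0.25 and 0.26, the last of them dim. The brightest SUCLG2 set and the one at 0.33 carry the suffix x_at. SDHA, the flavoprotein of succinate dehydrogenase, also rose, by 0.19. Pseudogene copies may share its probes. SDHC, another subunit of succinate dehydrogenase, was at 0.21 by its brightest probe set without passing (limma adjusted p = 0.0575). Its other probe sets were at 0.23, 0.18 and 0.23 (limma adjusted p = 0.0348, 0.0307 and 0.00538 over all probe sets). DLD was no longer called with centring over genes (-0.17).

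In the same list limma called 0 of 8 with manassantin and 1 with rotenone, where 0.97% and 6.94% of all genes were called. With manassantin an unadjusted p under 0.05 was reached by 0 of the 8, and by 1896 of all 11963 genes. SUCLA2 fell by 0.31 with rotenone, at 8.77 to 8.88 against 9.07 to 9.21 with DMSO (limma adjusted p = 0.0257). It was not called when DMSO replicate 2 or 3 or rotenone replicate 1 or 2 was left out, nor with 18S as a covariate. Manassantin against rotenone had 0 of 8 called by limma, where 8.47% of all genes were called. An unadjusted p under 0.05 was reached by 2 of the 8, and by 2805 of all 11963 genes. There SDHC was at 0.17 by its brightest probe set (limma adjusted p = 0.26). Its other probe sets were at 0.25 (limma adjusted p = 0.038 over all probe sets), 0.22 (0.0415) and 0.17 (0.246).

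Of a list of 10 genes around citrate and NADPH metabolism outside the mitochondrial matrix, where IDH1 works, 9 were measured. The list also took in a citrate carrier and enzymes such as TKT and MDH1, which neither use citrate nor make NADPH. With digoxin 5 fell and 2 rose, 77.8% called where 54.8% of all genes were (26.9% lower and 28% higher). The list's median was -0.21, and that of all genes 0.07. With centring over genes 4 fell and 3 rose, so the split depended on the scaling. ACLY, which cleaves citrate to acetyl-CoA, fell by 0.66 (levels 10.12 to 10.21 with digoxin, against 10.81 to 10.88 with DMSO, limma adjusted p = 2.00e-07), and its other probe sets gave -0.45 and -0.41. ME1, the cytosolic malic enzyme and another source of NADPH, fell by 0.65 (7.59 to 7.95 against 8.42 to 8.45, limma adjusted p = 1.72e-05). Its second probe set gave -0.78, and its remaining one, which was dim, gave 0.25. TKT, a transketolase of the pentose phosphate pathway, fell by 0.60 (10.46 to 10.56 against 11.03 to 11.22, limma adjusted p = 2.70e-06). MDH1, the cytosolic malate dehydrogenase, and MTHFD1, a folate enzyme, fell by 0.31 and 0.19, and MTHFD1 was no longer called under either centring. ACO1, the cytosolic aconitase that makes isocitrate, rose by 0.33 (9.83 to 9.94 against 9.52 to 9.58, limma adjusted p = 0.000104), and SLC25A1, the mitochondrial citrate carrier, by 0.13, a call lost when p-values were adjusted over all probe sets (0.0546).

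By its brightest probe set, no gene of that list was called against DMSO with manassantin (0 of 9 by limma, 4 at an unadjusted p under 0.05) or with rotenone (0 of 9 by limma, 5 at an unadjusted p under 0.05). Over all genes 0.97% and 6.94% were called, and 1896 and 2545 of 11963 had an unadjusted p under 0.05. The second ME1 probe set, not dim, was at -0.44 with rotenone (limma adjusted p = 0.00383 over all probe sets), and the brightest at -0.23 (0.107). Between manassantin and rotenone that second set was at 0.45 (limma adjusted p = 0.00334 over all probe sets). Between manassantin and rotenone SLC25A1 was the 1 called of 9 by the brightest probe sets, where 8.47% of all genes were called. SLC25A1 was higher with manassantin by 0.30 (8.54 to 8.57 with manassantin, against 8.18 to 8.29 with rotenone, limma adjusted p = 0.00439). PGD, an NADPH-forming enzyme of the pentose phosphate pathway, was at 0.32 with manassantin against DMSO without passing (limma adjusted p = 0.167).

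The last list held 13 enzymes that make or use 2-oxoglutarate or refill the cycle, of which 9 were measured. With digoxin 4 rose and 2 fell, 66.7% called where 54.8% of all genes were, with a median of -0.04. With centring over genes 4 rose and 1 fell. PCK2, the mitochondrial phosphoenolpyruvate carboxykinase, fell by 1.20 (levels 6.65 to 6.98 with digoxin, against 7.94 to 8.03 with DMSO, limma adjusted p = 5.26e-08). GOT1, the cytosolic aspartate aminotransferase, rose by 0.69 (9.40 to 9.56 against 8.73 to 8.81, limma adjusted p = 6.55e-07), while its mitochondrial counterpart GOT2 fell by 0.26 and was not called with centring over genes. GLUD1, glutamate dehydrogenase, rose by 0.27 (10.25 to 10.30 against 10.00 to 10.03, limma adjusted p = 0.000244); its probe sets may also read the near-identical GLUD2. PC, pyruvate carboxylase, rose by 0.21, and OGDHL, a relative of OGDH read by a dim probe set, by 0.38.

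With manassantin limma called 0 of 9 genes of that list, where 0.97% of all genes were called. At an unadjusted p under 0.05 there were 2 of the 9, and 1896 of all 11963 genes. With rotenone it called 1 of 9, where 6.94% of all genes were called. This was GOT1, higher by 0.27 (9.01 to 9.08 with rotenone, against 8.73 to 8.81 with DMSO, limma adjusted p = 0.0174). That call was lost without DMSO replicate 2 or 3 or rotenone replicate 1 or 2, and with 18S as a covariate. Manassantin against rotenone had 3 called of 9, where 8.47% of all genes were called. PCK2 was higher with manassantin by 0.35 (8.10 to 8.15 with manassantin, against 7.75 to 7.80 with rotenone, limma adjusted p = 0.0136) and PC by 0.29 (7.68 to 7.90 against 7.35 to 7.60, limma adjusted p = 0.0294), and GOT1 was lower by 0.22 on the log2 scale (8.74 to 8.88 against 9.01 to 9.08, limma adjusted p = 0.0337). Without rotenone replicate 2 the count was 1, and without rotenone replicate 3 it was 0. The comparisons with DMSO share the DMSO arrays, so their values are set side by side only.

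**Figure D4:**
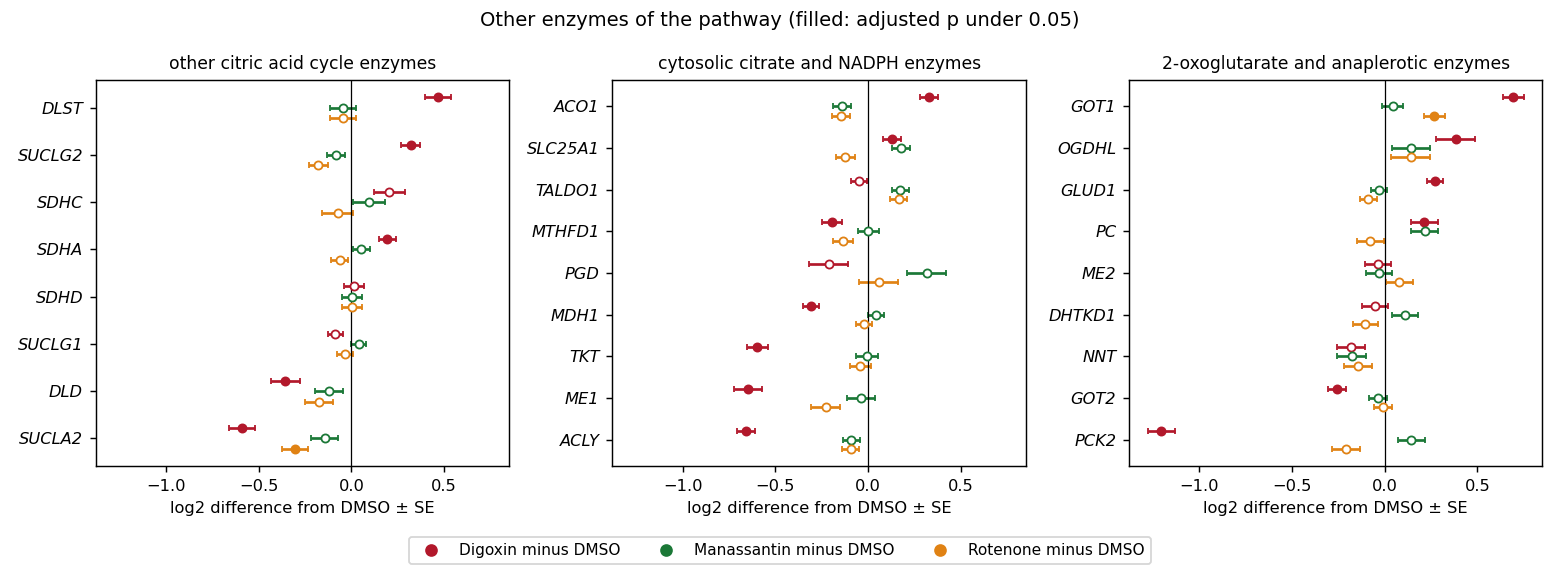
Log2 difference from DMSO with its SE (x axis) for the measured genes of the 3 lists (one panel each), for digoxin, manassantin and rotenone; filled points have an adjusted p under 0.05. Digoxin points spread from -1.20 (PCK2) to 0.69 (GOT1), and of the manassantin and rotenone points only SUCLA2 (-0.31) and GOT1 (0.27) with rotenone are filled.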

How the data were processed

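The authors deposited 1 table of probe set values for the 12 arrays. Per the labels' protocols, total RNA from a column kit was amplified into biotin-labelled targets for GeneChip arrays. The deposited values were read as log2 intensities from their range (1.65 to 13.75); how they were background-corrected, summarised and normalized is stated in no source used here, so the scale was inferred. The log2 values were used as deposited by the authors, without a pseudocount or a filter on dim genes.

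Of 22277 probe sets, 62 were controls; in GEO's platform annotation 19064 had 1 symbol, 1043 had several and 2108 had none, and those with 1 symbol were used to name genes. The brightest probe set over all arrays stood for each of the 11963 genes, 4310 of which had more than 1. Groups and replicate numbers came from the sample titles. Differences were fitted with limma 3.58.1 in R 4.3.3 (lmFit and eBayes) on all 12 arrays with group as the only term, leaving 8 residual degrees of freedom, and adjusted by Benjamini-Hochberg over all genes within a comparison. The number of arrays limits the precision.

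The members and the lists were chosen with earlier results of these data known. Genes were named by rule: the members, up to 4 called genes of a list per comparison, the 5 genes most like IDH1 and the 2 next to it among the falls. SDHA, SDHC, MDH1, MTHFD1, SLC25A1 with digoxin, ME1 outside digoxin, GOT2, PC with digoxin and PGD were named after their values were seen. Digoxin values of the members carry no test.

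Groups share replicate numbers. Deviations of same-numbered manassantin and rotenone arrays from their group means correlated at 0.256, 0.362 and 0.107 across genes, each over the criterion of 0.1, so blocked values stand beside that comparison; what the number marks is not stated. Against DMSO the correlations were not all over 0.1. Motifs were searched in RefSeq's upstream windows. Alternatives were the replicate block, quantile normalization, median centring, dim genes left out, the mean of probe sets, a trended robust prior, a fit of every probe set, weights for arrays, only the groups compared, an 18S covariate and each array left out; leaving out digoxin and centring over genes were added after seeing the data.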

Additional observations from a re-analysis of the deposited data

How the results depend on the processing

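Over the alternatives tried, 137 of the members' 144 recomputed values with manassantin against DMSO, 138 of 144 with rotenone and 114 of 144 between manassantin and rotenone kept their direction and side of the threshold, and 116 of 136 with digoxin moved by less than the spread. Precision is limited by the number of arrays, and the cause of the changes below was not tested. Counts of calls are given against the main values: 0 of 8 members outside digoxin, and for the cycle, cytosolic and 2-oxoglutarate lists 0, 0 and 0 with manassantin, 1, 0 and 1 with rotenone, and 0, 1 and 3 between manassantin and rotenone. The replicate block gave 291 genes with manassantin in place of 116, 1 cytosolic gene with manassantin and 1 with rotenone, and between manassantin and rotenone 3 members and 2 cytosolic genes; it changed no other of these counts by over 1.5 times. Against DMSO the same-numbered arrays share only a number. Quantile normalization gave 2 cycle genes and 1 cytosolic gene with rotenone and 1 member between manassantin and rotenone. Median centring gave 76 genes with manassantin and 2 members between manassantin and rotenone, and centring over genes 71 and 1. Leaving out dim genes, which tests fewer genes, gave 491 genes with manassantin, 1301 with rotenone and 1540 in place of 1013 between manassantin and rotenone, with 2 cytosolic genes with manassantin, 2 cycle and 3 cytosolic genes with rotenone, and 3 members between manassantin and rotenone. The mean of probe sets gave 1 cytosolic gene with rotenone and 1 member between manassantin and rotenone. With digoxin it called 8 members in place of 5, and 6692 genes in place of 6561. Nothing is read from that member count, since this contrast chose the genes. A trended robust prior gave 503, 1312 and 1545 genes in the same order, 1 cytosolic gene with manassantin, 2 cycle and 4 cytosolic genes with rotenone, and 3 members, 1 cycle gene and 2 cytosolic genes between manassantin and rotenone. Array weights gave 278 genes with manassantin and 1614 in place of 830 with rotenone, where 2 cycle, 4 cytosolic and 2 2-oxoglutarate genes passed, and 1 member and 2 cytosolic genes between manassantin and rotenone. Only the 2 groups compared gave 4 genes with manassantin, 1 member, 1 cytosolic and 2 2-oxoglutarate genes with rotenone, and 1 member and 1 2-oxoglutarate gene between manassantin and rotenone. The 18S covariate gave 3 genes with manassantin and 339 with rotenone, with 0 cycle and 0 2-oxoglutarate genes there. Without the digoxin arrays 1 member, 2 cycle, 1 cytosolic and 2 2-oxoglutarate genes passed with rotenone, and 1 member and 2 cytosolic genes between manassantin and rotenone. With each array left out in turn, the genes called ranged from 7 to 25 with manassantin, from 346 to 500 with rotenone and from 500 to 835 between manassantin and rotenone; the cycle and 2-oxoglutarate lists with rotenone ranged from 0 to 1, and the 2-oxoglutarate list between manassantin and rotenone from 0 to 3. The split of calls moved with the scaling: 3347 higher and 3214 lower with digoxin became 5020 and 2685 with median centring and 6952 and 2158 with centring over genes, 102 and 14 with manassantin became 58 and 20 with quantile normalization and 47 and 24 with centring over genes, and 561 and 452 between manassantin and rotenone became 445 and 540 with quantile normalization and 349 and 665 with centring over genes. MDH2 with digoxin changed sign, to -0.4225 with the mean of its 2 disagreeing probe sets. The other values that changed sign lay near 0. With centring over genes, CS with digoxin became 0.0263 and IDH2 0.0126. IDH2 with manassantin became -0.0023 with the mean of probe sets and ranged from -0.0329 to 0.1186 in leave-one-out fits. OGDH with manassantin became -0.0032 with centring over genes, -0.0053 with 18S and ranged from -0.0454 to 0.0653 in leave-one-out fits. With rotenone OGDH became -0.0031 with 18S and ranged from -0.0201 to 0.0476 in leave-one-out fits, and IDH3B ranged from -0.0594 to 0.0062. Between manassantin and rotenone OGDH became -0.0136 with quantile normalization, -0.0314 with centring over genes, -0.0016 with array weights, -0.0022 with 18S and ranged from -0.0644 to 0.047 in leave-one-out fits. There MDH2 became -0.0054 with median centring, -0.0379 with centring over genes and ranged from -0.0126 to 0.0184 in leave-one-out fits, and IDH3B ranged from -0.0491 to 0.0043.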
